A study of Mus musculus with 16 samples.

Results

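The small leucine-rich proteoglycans (SLRPs) are secreted matrix proteins, and 8 of them were followed here: Dcn, Bgn, Aspn, Lum, Fmod, Prelp, Ogn and Podn. They were chosen by gene symbol, through the GENCODE annotation of the mouse build GRCm38, as 8 rows of a table of read counts for 29730 genes. The rule uses no measured value, but the family was picked with earlier results of these data known. The table came from RNA sequencing of the tibialis anterior, a shin muscle, in 16 male mice aged 7 weeks whose strain is labelled C57BL/6N. WT mice received phosphate-buffered saline (WT_PBS) or the antisense oligonucleotide ASO1 (WT_ASO), and Bin1mck-/- mice, which model a recessive form of centronuclear myopathy, received saline (KO_PBS) or ASO1 (KO_ASO), with 4 samples in each of the 4 groups. ASO1 is a short synthetic strand directed at Dnm2, which encodes the membrane-cutting GTPase dynamin 2, and Bin1 encodes amphiphysin 2, a protein that bends membranes. The sources used here do not give the cells in which Bin1 was deleted, the deleted part of the gene, the dose or the schedule of injection. The labels do not state that each sample came from its own mouse, and this was assumed, so that P values measure the spread between these samples.

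SLRPs have a small core protein built of leucine-rich repeats, and most carry chains of chondroitin, dermatan or keratan sulfate. They sit on collagen fibrils, where they limit or guide the lateral growth of the fibril, and several of them bind growth factors such as TGF-beta or receptors at the cell surface. In skeletal muscle they are made mainly by fibroblasts of the connective tissue between fibres and by tendon cells, not by the fibres. Decorin (Dcn), biglycan (Bgn) and asporin (Aspn) form class I; lumican (Lum), fibromodulin (Fmod) and PRELP (Prelp) belong to class II; osteoglycin (Ogn) belongs to class III; podocan (Podn) belongs to a further, non-canonical class.

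Libraries held between 27591900 and 40862854 counts, and single members between 159 and 10276 counts per sample. All 8 members passed the filter on low counts, as did 14960 of the 29730 genes. Values are in CPM, that is, counts divided by the scaled size of their library, and genes with an edgeR adjusted P value under 0.05 are termed differentially expressed genes (DEGs). The targeted genes followed the labels: Bin1 was at 495 ± 40.6 CPM in WT_PBS and 44.9 ± 3.27 CPM in KO_PBS (SD, n = 4 each), and Dnm2 was at 62.8 ± 3.63 CPM in KO_PBS and 24.8 ± 4.48 CPM in KO_ASO (SD, n = 4 each). The labelled tissue carried its markers in all groups, with the summed level of 7 fibre genes such as Ckm and Acta1 between 98607 and 200499 CPM over all samples. The summed level of these fibre genes was lower in KO_PBS (98607 to 119256 CPM) than in WT_PBS (137778 to 174554 CPM).

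Most members lie in small SLRP clusters of the genome. On chromosome 10, Dcn (ENSMUSG00000019929, 97479609 to 97518143, plus strand) lies 47.0 kb upstream of Lum (ENSMUSG00000036446, 97565128 to 97572703, plus strand), and the keratocan gene Kera and the epiphycan gene Epyc follow. On chromosome 13, Aspn (ENSMUSG00000021388, 49544443 to 49567565, plus strand) and Ogn (ENSMUSG00000021390, 49608046 to 49624501, plus strand) share a cluster with Ecm2 and Omd. On chromosome 1, Prelp (ENSMUSG00000041577, 133910304 to 133921414, minus strand) and Fmod (ENSMUSG00000041559, 134037254 to 134048277, plus strand) point away from each other across 115.8 kb. Bgn (ENSMUSG00000031375, chromosome X, 73483602 to 73495933, plus strand) and Podn (ENSMUSG00000028600, chromosome 4, 108014791 to 108096445, minus strand) each lie apart from the other members. All 8 are protein coding. Aspn shares 7 exonic bases with Cenpp on the other strand, a gene with a mean of 23.6 counts, and no other member shares an exonic base with another gene.

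RefSeq promoter windows, from 250 bases before to 50 bases after the annotated start on GRCm38.p6, were found for 6 of the 8 members, all but Dcn and Lum, and Podn had 2 windows. The 250 bases before the start are shown for Bgn and Aspn, class I members with very different base composition, and for Fmod and Prelp, whose levels moved together most closely. Capitals mark the letters of a GC box (GGGCGG, read on the opposite strand as CCGCCC) in Bgn and of a TATA box (TATAAA, on the opposite strand TTTATA) in Aspn.
Bgn, chrX:73483351-73483600, plus strand: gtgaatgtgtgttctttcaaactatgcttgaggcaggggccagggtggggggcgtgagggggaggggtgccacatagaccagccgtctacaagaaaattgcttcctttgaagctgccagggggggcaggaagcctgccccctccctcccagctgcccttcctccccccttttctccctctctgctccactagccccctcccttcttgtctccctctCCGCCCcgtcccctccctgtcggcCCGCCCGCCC
Aspn, chr13:49544193-49544442, plus strand: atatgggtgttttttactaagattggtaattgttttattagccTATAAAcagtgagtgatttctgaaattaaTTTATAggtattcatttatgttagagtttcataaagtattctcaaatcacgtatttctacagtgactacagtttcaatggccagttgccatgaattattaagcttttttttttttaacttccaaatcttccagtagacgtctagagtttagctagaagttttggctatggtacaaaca
Fmod, chr1:134037004-134037253, plus strand: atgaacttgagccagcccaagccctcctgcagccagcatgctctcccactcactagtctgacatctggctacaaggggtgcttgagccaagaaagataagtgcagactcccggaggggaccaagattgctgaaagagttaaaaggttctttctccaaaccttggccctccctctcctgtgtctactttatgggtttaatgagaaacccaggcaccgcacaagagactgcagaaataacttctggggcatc
Prelp, chr1:133921402-133921651, minus strand: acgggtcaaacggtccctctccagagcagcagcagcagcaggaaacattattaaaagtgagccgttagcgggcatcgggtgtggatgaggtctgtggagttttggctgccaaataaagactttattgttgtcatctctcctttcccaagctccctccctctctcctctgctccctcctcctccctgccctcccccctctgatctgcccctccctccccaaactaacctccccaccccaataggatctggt
The 250 bases held 64.4% G and C in Bgn, 30.0% in Aspn, 51.2% in Fmod and 55.6% in Prelp. On both strands of the 300-base windows, GGGCGG was found in 2 of 7 member windows (Bgn and Podn) and in 35.7% of 32851 RefSeq windows, and TATAAA in 2 of 7 (Aspn and Ogn) and in 13.6% of all. Bgn held GGGCGG at 3 places, 34, 10 and 6 bases before the start, the last 2 overlapping each other. The TATAAA letters of Aspn stood 207 and 178 bases before the start, and those of Ogn 229 and 227 bases before it, overlapping on the 2 strands. The AP-1 letters TGANTCA were in 0 of 7 member windows and 7.81% of all, the TEAD letters GGAATG in 1 of 7 (Ogn) and 14.7%, and the RUNX letters TGTGGT in 1 of 7 (Ogn) and 16.8%. These matches describe letters in a window and not sites in use.

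Levels of different members were compared per kilobase of exon. The length joined the exons of all annotated transcripts of a gene, with 6099 bases for Bgn, 5838 for Dcn and 3306 for Fmod. The order of members depends on this choice of length, and other lengths were not tried. In WT_PBS, Dcn, the main proteoglycan of muscle connective tissue, was highest with 24.5 ± 3.47 CPM per kb (SD, n = 4), followed by Fmod with 17.2 ± 7.85, Bgn with 10.4 ± 1.20 and Lum with 9.04 ± 2.18 CPM per kb. Aspn had 7.18 ± 1.98, Prelp 5.54 ± 0.706, Ogn 5.27 ± 1.34 and Podn 2.01 ± 0.367 CPM per kb. The ranges of neighbours in this order overlapped, except between Fmod and Bgn and between Ogn and Podn. Podn was the lowest member in all 16 samples, and Dcn ranked first or next to first in all 16. Fmod ranked anywhere from 1 to 7. The 8 members together took 0.0336% ± 0.00558 of all counts in WT_PBS, 0.0298% ± 0.00866 in WT_ASO, 0.0624% ± 0.0130 in KO_PBS and 0.0343% ± 0.0120 in KO_ASO (SD, n = 4 each). The lowest KO_PBS sample (0.0498%) was above the highest WT_PBS sample (0.0391%) and above the highest KO_ASO sample (0.0482%).

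**Figure D1:**
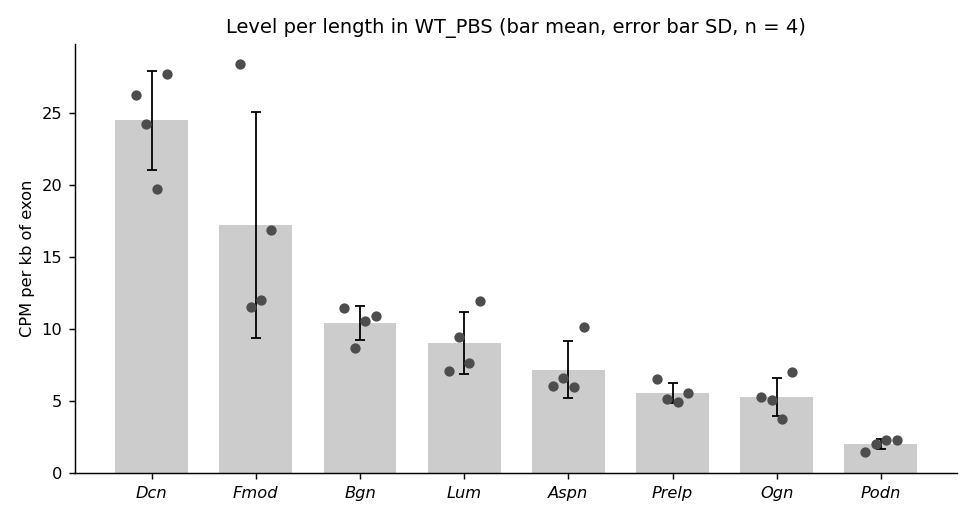
Level of the 8 members per length in saline-treated WT mice. Bars are means, error bars SD and points the 4 WT_PBS samples; the vertical axis is CPM per kb of exon from 0. Dcn is highest at 24.5 and Podn lowest at 2.01 CPM per kb, and the points of Fmod are the most spread.

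The comparison of KO_PBS with WT_PBS gives the effect of the genotype under saline. The fitted log2 fold change (log2FC) was above 0 for all 8 members, with a median of 0.64 where the median of all 14960 genes was -0.0108. Dcn and Bgn were DEGs, 2 of 8 members, where 7.43% of all tested genes were called higher. Dcn, Bgn and Lum, 3 of 8, had groups that did not overlap, with every KO_PBS sample above every WT_PBS sample, and so did 10.5% of all tested genes in that direction. In whole muscle, more cells that make a transcript and more RNA per cell cannot be told apart.

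Bgn, which binds collagen and, as a free protein, the toll-like receptors 2 and 4, had the largest change among the members. Its 4 WT_PBS samples measured 69.9, 53.0, 64.3 and 66.5 CPM, and its 4 KO_PBS samples 249, 123, 139 and 135 CPM. KO_PBS replicate 1 was the highest, and even the lowest KO_PBS sample lay well above all WT_PBS samples. The mean rose 2.54-fold (log2FC 1.35, SE 0.29, edgeR adjusted P = 0.00808). Without KO_PBS replicate 1 the log2FC was 1.06 (edgeR adjusted P = 0.0295), and the call held under every alternative run.

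Dcn, which binds collagen fibrils and sequesters TGF-beta, measured 153, 142, 115 and 162 CPM in WT_PBS and 242, 186, 176 and 253 CPM in KO_PBS. The highest WT_PBS sample (162 CPM) was below the lowest KO_PBS sample (176 CPM), a narrow gap. The rise was 0.58 on the log2 scale (SE 0.17, edgeR adjusted P = 0.0343). This call was close to the threshold: it was lost without a filter on low counts (adjusted P = 0.0607) and without WT_PBS replicate 1 (0.0509), 2 (0.0762) or 3 (0.0957) or KO_PBS replicate 1 (0.104) or 4 (0.0876), with log2FC values from 0.49 to 0.62.

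Lum, which regulates collagen fibril diameter, measured 17.3, 23.2, 18.8 and 29.2 CPM in WT_PBS and 56.2, 34.0, 32.1 and 36.7 CPM in KO_PBS. The groups did not overlap, and KO_PBS replicate 1 again stood highest. The log2FC was 0.84 (SE 0.29) and missed the threshold in edgeR (adjusted P = 0.0730), while DESeq2 called it (adjusted P = 0.0285). Scaling by library totals alone (0.0405) and a fit of the compared groups alone (0.0246) also put Lum past the threshold.

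The other members did not pass. Ogn, a class III SLRP of collagen-rich tissues, was at 13.5 ± 3.44 CPM in WT_PBS and 23.1 ± 6.68 CPM in KO_PBS (SD, n = 4 each; log2FC 0.77, SE 0.30, edgeR adjusted P = 0.114). Aspn, a class I member that carries an aspartate-rich stretch, was at 16.9 ± 4.66 and 27.3 ± 8.13 CPM (log2FC 0.69, SE 0.30, adjusted P = 0.152). In both genes 1 or more samples of the groups overlapped. Prelp, which anchors collagen to heparan sulfate of basement membranes, was at 20.0 ± 2.55 and 25.5 ± 5.97 CPM (log2FC 0.35, SE 0.21, adjusted P = 0.323). Podn was at 8.58 ± 1.57 and 10.2 ± 0.806 CPM (log2FC 0.25, SE 0.28, adjusted P = 0.615).

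Fmod, a keratan sulfate proteoglycan that is abundant in tendon, measured 93.9, 38.0, 39.7 and 55.9 CPM in WT_PBS and 53.2, 50.1, 72.7 and 126 CPM in KO_PBS. The groups overlapped almost fully, and each had 1 sample far above the others. The log2FC was 0.41 with an SE of 0.64 (edgeR adjusted P = 0.731), and its 95% interval ran from -0.96 to 1.78, so that neither a rise as large as that of Bgn nor a fall of similar size to the rise of Dcn lay outside it. The log2FC was 0.054 without KO_PBS replicate 4 and 0.76 without WT_PBS replicate 1.

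**Figure D2:**
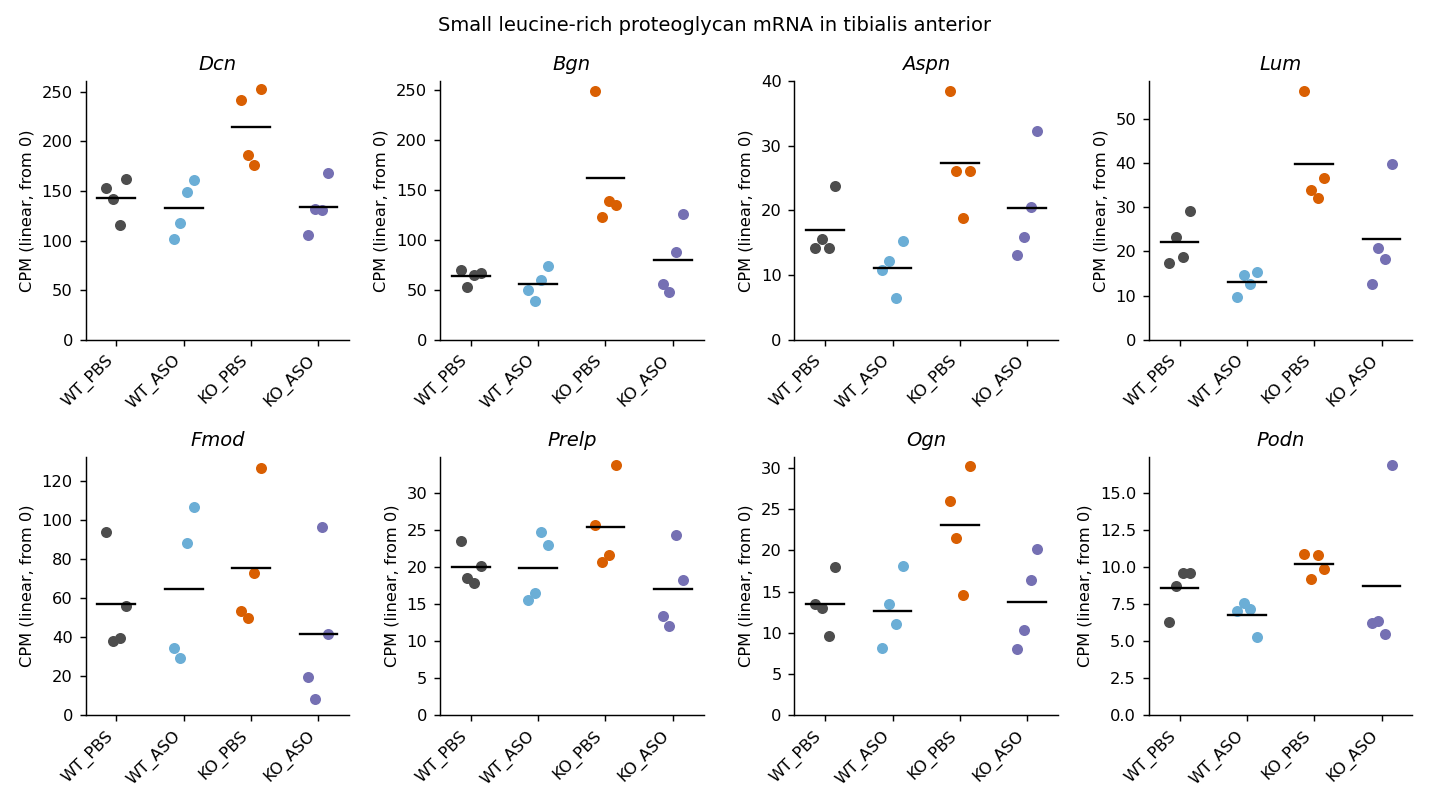
CPM of the 8 members in each of the 16 samples. Points are samples, black lines group means, and each vertical axis is linear from 0. The 4 KO_PBS points of Dcn, Bgn and Lum lie above the 4 WT_PBS points, and those of Fmod are mixed with them.

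The comparison of KO_ASO with KO_PBS gives the effect of the oligonucleotide in Bin1mck-/- mice; it shares the 4 KO_PBS samples with the comparison above, so that a sample that is high in KO_PBS enters both with opposite sign. The log2FC was below 0 for all 8 members, with a median of -0.72 where that of all genes was 0.0102. Dcn was the member called, 1 of 8, where 2.83% of tested genes were called lower, and it was also the member whose groups did not overlap, where 6.34% of tested genes had every KO_ASO sample below every KO_PBS sample. Dcn measured 105, 132, 131 and 168 CPM in KO_ASO, against 176 to 253 CPM in KO_PBS, and fell by 0.68 on the log2 scale (SE 0.17, edgeR adjusted P = 0.0390). The call was lost without the filter (adjusted P = 0.0551), in a fit of the compared groups alone (0.0625), and when KO_PBS replicate 1 (0.118) or 4 (0.0920), or KO_ASO replicate 1 (0.130), 2 (0.0809) or 3 (0.0907), was left out, with log2FC values from -0.69 to -0.58 in these fits.

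Bgn measured 55.9, 48.0, 88.1 and 126 CPM in KO_ASO. KO_ASO replicate 4 reached into the range of KO_PBS, and the other 3 samples lay below it. The log2FC was -1.02 (SE 0.29) and missed the threshold in edgeR (adjusted P = 0.0671). DESeq2 called it (adjusted P = 0.00791), and so did edgeR without KO_ASO replicate 4 (log2FC -1.33, adjusted P = 0.0150).

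KO_ASO replicate 4 was the highest sample of its group for 6 of the 8 members. The samples numbered 4 in WT_PBS, WT_ASO and KO_PBS were also the highest of their groups for Dcn and Ogn. For Aspn and Lum this held in WT_PBS and WT_ASO but not in KO_PBS, for Bgn in WT_ASO alone, and for Podn in none of them. Lum was at 12.6, 20.8, 18.3 and 39.8 CPM in KO_ASO, with replicate 4 above 3 of the 4 KO_PBS samples (log2FC -0.80, SE 0.29, edgeR adjusted P = 0.156). Podn was at 6.22, 6.36, 5.50 and 16.9 CPM in KO_ASO, with replicate 4 above all other samples of the study (log2FC -0.23, SE 0.28, adjusted P = 0.753). Without this library both were called, Lum with a log2FC of -1.21 (edgeR adjusted P = 0.0130) and Podn with -0.76 (adjusted P = 0.0131), so that 4 of 8 members were then DEGs. Calls over all tested genes, in either direction, also rose without it, from 544 to 831.

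For the members not called in either fit, the differences were -0.58 for Prelp (SE 0.22, edgeR adjusted P = 0.156), -0.75 for Ogn (SE 0.31, adjusted P = 0.201) and -0.42 for Aspn (SE 0.30, adjusted P = 0.522) on the log2 scale. Fmod measured 19.5, 8.31, 96.5 and 41.7 CPM in KO_ASO, an 11.6-fold range within a group (log2FC -0.87, SE 0.64, adjusted P = 0.541). KO_ASO replicate 3 was the highest sample of its group for Fmod and for Prelp, and replicate 2 the lowest for both.

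**Figure D3:**
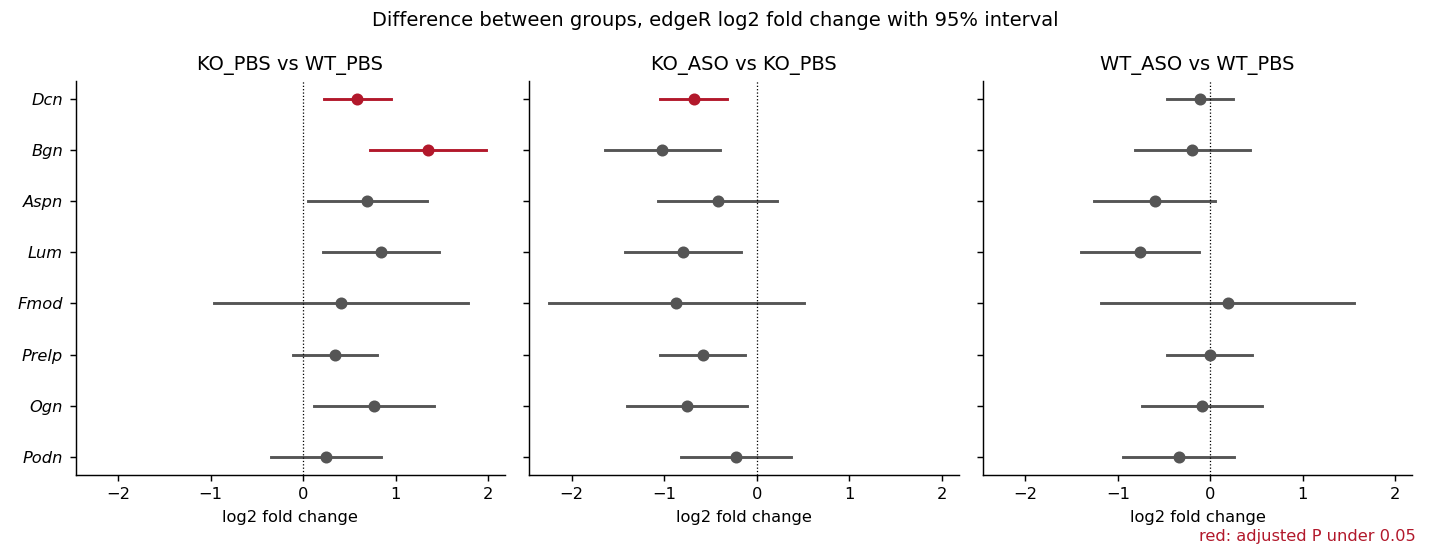
Log2FC of the 8 members in 3 comparisons, from edgeR. Points are estimates and lines 95% intervals, in red where the adjusted P value passed; the horizontal axis is log2. Bgn is at 1.35 and Dcn at 0.58 in KO_PBS vs WT_PBS, Dcn is at -0.68 in KO_ASO vs KO_PBS, and the interval of Fmod is the widest.

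In WT mice, the oligonucleotide gave 0 member DEGs by edgeR and 0 by DESeq2, where 0.00668% of tested genes were called by edgeR, and 1 of 8 members had an unadjusted P under 0.05, as did 6.45% of all tested genes. That member was Lum, at 9.62, 14.7, 12.5 and 15.2 CPM in WT_ASO against 17.3 to 29.2 CPM in WT_PBS. All WT_ASO samples of Lum lay below all WT_PBS samples, which was so for no other member and for 1.42% of tested genes. The log2FC of Lum was -0.76 (SE 0.30, edgeR adjusted P = 0.736). The log2FC of the other members ran from -0.60 for Aspn (SE 0.31) to 0.19 for Fmod (SE 0.64), and the 95% intervals of Dcn (-0.47 to 0.25) and Bgn (-0.81 to 0.42) both included 0.

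The genotypes were also compared under the oligonucleotide. Between KO_ASO and WT_ASO, 0 members were DEGs by edgeR and 0 by DESeq2, where 0.0735% of genes were called by edgeR, and 2 of 8 members, Aspn and Lum, had an unadjusted P under 0.05, as did 15.1% of all tested genes. Aspn was at 20.4 ± 8.51 CPM in KO_ASO and 11.1 ± 3.63 CPM in WT_ASO (SD, n = 4 each; log2FC 0.87, SE 0.31, edgeR adjusted P = 0.217), and the log2FC of Lum was 0.81 (SE 0.30, adjusted P = 0.234). Dcn differed by 0.017 (SE 0.17) and Bgn by 0.52 (SE 0.29) on the log2 scale. A 95% interval of -0.34 to 0.38 for Dcn and of -0.099 to 1.14 for Bgn leaves room for a difference of either sign.

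Between KO_ASO and WT_PBS, groups that differ in genotype and in treatment, 0 members were called by edgeR and 0 by DESeq2, where 0.0401% of genes were called by edgeR, and 0 had an unadjusted P under 0.05, where 8.22% of all tested genes did. The log2FC ran from -0.46 for Fmod (SE 0.64) to 0.33 for Bgn (SE 0.29), with -0.094 for Dcn (SE 0.17) and 0.045 for Lum (SE 0.30). A P value that misses the threshold does not show that the groups are alike: the 95% interval of Bgn reached from -0.29 to 0.94. The interaction, the difference between the genotypes in the effect of the oligonucleotide, called 0 members by edgeR and 0 by DESeq2, where 0.575% of genes were called by edgeR. Dcn, with -0.57 (SE 0.24, unadjusted P = 0.0317, edgeR adjusted P = 0.339), was the 1 member with an unadjusted P under 0.05, as were 12.7% of all tested genes, and Bgn had -0.83 (SE 0.41, adjusted P = 0.430).

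A two-sided exact permutation test of each member in each of the 5 comparisons of groups can go no lower than 0.0286 with 4 samples against 4. It reached this value for Dcn, Bgn and Lum in KO_PBS vs WT_PBS, for Dcn in KO_ASO vs KO_PBS and for Lum in WT_ASO vs WT_PBS. After adjustment over the 40 tests the smallest value was 0.229, so none passed by this test.

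Bgn was also set against Dcn. The count of Bgn was 0.450 ± 0.0794 times that of Dcn in WT_PBS, 0.419 ± 0.0691 in WT_ASO, 0.752 ± 0.210 in KO_PBS and 0.580 ± 0.170 in KO_ASO (SD, n = 4 each). The ranges of KO_PBS (0.533 to 1.03) and WT_PBS (0.374 to 0.558) overlapped. This ratio was chosen after the values of both genes were seen. None of the 5 comparisons of groups passed a two-sided exact permutation test of its log2 value: the smallest P was 0.0571, for KO_PBS vs WT_PBS (log2 difference 0.72, adjusted over the 5 comparisons 0.285), and for KO_ASO vs KO_PBS it was 0.257 (log2 difference -0.39, adjusted 0.357). Leaving out each sample in turn, an alternative chosen after seeing the data, gave log2 differences of 0.55 to 0.87 in the former and of -0.54 to -0.18 in the latter, where the size was smallest without KO_ASO replicate 2 (-0.18) and without KO_PBS replicate 1 (-0.22).

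Members differed in how much they varied within groups. The within-group SD of log2 CPM was 0.99 for Fmod, larger than in 98.6% of tested genes, and 0.27 for Dcn, larger than in 56.8%. The other 6 members lay between 0.34 for Prelp and 0.48 for Ogn. Of the 28 pairs of members, 26 had a positive Pearson's r of their deviations from the group means over the 16 samples, and 18 had an r above 0.5. All points of such a correlation share the library scaling, and the values are given as a description. Fmod and Prelp, neighbours on chromosome 1 whose upstream sequences are shown above, had an r of 0.93, Dcn and Ogn 0.85 and Aspn and Lum 0.79. Dcn and Lum, neighbours on chromosome 10, had an r of 0.73, and Aspn and Ogn, of the chromosome 13 cluster, 0.77. Fmod had an r of 0.094 with Lum and of -0.093 with Podn.

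**Figure D4:**
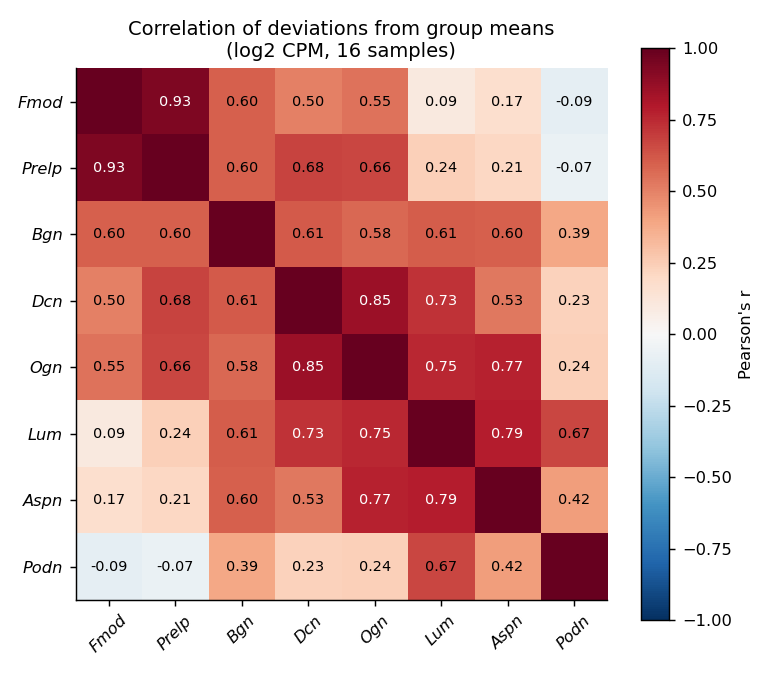
Pearson's r between members, computed on deviations of log2 CPM from group means over 16 samples. Red is positive and blue negative. Fmod and Prelp form the closest pair at 0.93, and Podn is least like Fmod (-0.093) and Prelp (-0.069).

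Among the tested genes that are not members, those most like each member in these within-group deviations over 16 samples were named, 2 per member. For Fmod they were Kera (r = 0.95) and Chad (r = 0.95), both of the SLRP family or close to it, and for Prelp they were Comp (r = 0.94), a tendon and cartilage matrix protein, and Mmp2 (r = 0.91), a gelatinase. Dcn was most like Lpar1 (r = 0.94) and Tent5a (r = 0.93), and Bgn most like Sept1 (r = 0.95) and Sgce (r = 0.94). Aspn was most like Itga8 (r = 0.92) and Tmem70 (r = 0.90), Lum most like Itih5 (r = 0.92) and Prim2 (r = 0.90), Ogn most like Rcor1 (r = 0.92) and Pi15 (r = 0.90), and Podn most like Mms22l (r = 0.91) and Scn2b (r = 0.89). Each is the highest or next highest r over the tested genes outside the 8 members, and nothing further was read from it.

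Markers of the cells that make SLRPs were read in the same samples. Of 12 fibroblast and fibro-adipogenic markers, 6 were called higher and 1, Lamc3, lower in KO_PBS than in WT_PBS (log2FC -1.16, SE 0.29, a call lost without WT_PBS replicate 4, -1.02), with a median log2FC of 0.65, and 2 were called lower in KO_ASO than in KO_PBS. Their summed level was 553 to 659 CPM in WT_PBS, 493 to 740 in WT_ASO, 781 to 985 in KO_PBS and 512 to 659 in KO_ASO, so that the KO_PBS samples stood above all others. Gsn, which encodes the actin-severing protein gelsolin, made up 52.1% to 60.4% of this sum in the group means. Without Gsn, an alternative chosen after seeing the data, the sum of the other 11 was 231 to 259 CPM in WT_PBS, 193 to 274 in WT_ASO, 303 to 422 in KO_PBS and 228 to 368 in KO_ASO, so that KO_PBS stayed above both WT groups and overlapped with KO_ASO. Of 6 tendon markers, 1 was called higher, Scx, the tendon transcription factor scleraxis (log2FC 2.24, SE 0.32, edgeR adjusted P = 0.000299), and the same gene was the 1 called lower in KO_ASO than in KO_PBS (log2FC -1.31, SE 0.30, adjusted P = 0.0277), a call lost without KO_PBS replicate 1 (-1.06) or KO_ASO replicate 1 (-1.34) or 3 (-1.22). The tendon sum was 72.2 to 144 CPM in WT_PBS, 71.2 to 151 in WT_ASO, 116 to 269 in KO_PBS and 64.7 to 206 in KO_ASO, and these ranges overlapped. All 8 macrophage markers were called higher in KO_PBS than in WT_PBS and 6 of them lower in KO_ASO than in KO_PBS, with sums of 28.2 to 51.0 CPM in WT_PBS, 34.1 to 68.7 in WT_ASO, 81.6 to 201 in KO_PBS and 32.1 to 58.6 in KO_ASO. Cd68 (log2FC 3.41, SE 0.31), Cd163 (1.51, SE 0.29) and C1qc (1.94, SE 0.37) had the smallest P values in KO_PBS vs WT_PBS. Cd68 (-2.63, SE 0.29) and Cd163 (-1.58, SE 0.30) had them in KO_ASO vs KO_PBS. DESeq2 called all 8 in both comparisons. None of the fibroblast, tendon or macrophage markers was at 0 in any sample. In KO_PBS vs WT_PBS, 0 of 5 endothelial, 0 of 4 adipocyte, 0 of 5 Schwann cell and 0 of 4 red blood cell markers were called by edgeR and 0 by DESeq2. Of these, 1 endothelial marker and 0 of the others had an unadjusted P under 0.05, as did 27.3% of all tested genes. Other cell types did have calls in this comparison. Both satellite cell markers, the muscle stem cell factors Pax7 (log2FC -1.39, SE 0.22, edgeR adjusted P = 0.000654) and Myf5 (-1.30, SE 0.37, adjusted P = 0.0300), were lower, as was 1 of 5 pericyte and smooth muscle markers, Myh11 (-0.45, SE 0.12, adjusted P = 0.0243). Of 7 fibre markers, Tnnt3 (-0.40, SE 0.10, adjusted P = 0.0153) and Pvalb (-0.73, SE 0.21, adjusted P = 0.0327) were lower. With library totals alone the calls of Myf5 (-1.15), Myh11 (-0.30), Tnnt3 (-0.25) and Pvalb (-0.57) were lost. That of Pvalb was also lost without a filter on low counts (edgeR adjusted P = 0.0776) and with the compared groups alone (0.0602). Calls were also lost without 1 of WT_PBS replicates 3 and 4 or KO_PBS replicates 1, 2 and 3 for Myf5 (-1.31 to -1.12), WT_PBS replicates 1, 3 and 4 or KO_PBS replicates 1 and 2 for Myh11 (-0.43 to -0.39), KO_PBS replicate 1 for Tnnt3 (-0.38), and WT_PBS replicates 2 and 4 or KO_PBS replicate 1 for Pvalb (-0.76 to -0.54). Of the 2 cartilage and bone markers that passed the filter, edgeR called 0, and 1 had an unadjusted P under 0.05. DESeq2, which did not use that filter, called the bone sialoprotein gene Ibsp lower (log2FC -6.61, adjusted P = 0.00471), with 35, 0, 86 and 171 counts in WT_PBS and 1, 0, 2 and 0 in KO_PBS. Ibsp had 0 counts in every WT_ASO sample and 5, 1, 1 and 0 in KO_ASO, so that only WT_PBS held higher counts. The part of these cell types in the differences of the members was not tested.

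Within groups, 24 relations were tested between a member and the mean log2 level of a marker list, with P values from 100000 permutations within groups. The permutations treat samples of a group as exchangeable, and all values share the library scaling. Replicate 4 lay above its group mean in every group for the tendon and fibroblast lists, Dcn, Fmod and Prelp. Replicate 2 lay below it in every group for the tendon list, Fmod, Prelp and Bgn. This pattern was not taken out, and its part in these P values was not tested. By Pearson's r, 9 of the 24 passed after adjustment: Bgn, Fmod and Prelp with the tendon markers, Dcn, Bgn, Lum and Ogn with the fibroblast markers, and Dcn and Prelp with the macrophage markers. Fmod followed the tendon markers with a Pearson's r of 0.94 (permutation P = 0.00054, adjusted over 24 relations 0.00568; Spearman's rho 0.92, adjusted permutation P = 0.00312), and r was 0.88 without the 2 samples farthest from the median, KO_ASO replicates 2 and 3. Prelp gave an r of 0.92 with the same markers (adjusted permutation P = 0.00568; rho 0.90, adjusted P = 0.00312), and 0.86 without those samples. Bgn gave 0.72 with the tendon markers (adjusted permutation P = 0.0392; rho 0.79, adjusted P = 0.0140) and 0.71 without those samples. Dcn followed the fibroblast markers with an r of 0.91 (adjusted permutation P = 0.00568; rho 0.91, adjusted P = 0.00728), and 0.91 without KO_PBS replicate 1 and KO_ASO replicate 4. Bgn gave an r of 0.80 with the fibroblast markers (adjusted permutation P = 0.0196; rho 0.76, adjusted P = 0.0140) and 0.65 without those samples. Lum gave 0.74 with the fibroblast markers (adjusted permutation P = 0.0229; rho 0.65, adjusted P = 0.0459) and 0.54 without those samples. Ogn gave 0.69 with the fibroblast markers (adjusted permutation P = 0.0392; rho 0.69, adjusted P = 0.0459) and 0.62 without those samples. With the macrophage markers, Dcn had an r of 0.76 (adjusted permutation P = 0.0229; rho 0.73, adjusted P = 0.0343) and Prelp of 0.73 (adjusted permutation P = 0.0229; rho 0.71, adjusted P = 0.0200), and these were 0.74 and 0.62 without WT_ASO replicate 3 and KO_PBS replicate 4. By Spearman's rho 10 of the 24 passed: the same 9 and Prelp with the fibroblast markers (r 0.64, adjusted permutation P = 0.0895; rho 0.71, adjusted P = 0.0470), so that by rho Prelp passed with all 3 lists. Podn had an r of 0.40 with the fibroblast markers (adjusted permutation P = 0.363; rho 0.21, adjusted P = 0.559) and -0.13 with the tendon markers (adjusted permutation P = 0.786; rho -0.22, adjusted P = 0.560). Relations that did not pass also moved when the 2 farthest samples were left out. Dcn with the tendon markers went from 0.56 (adjusted permutation P = 0.105) to 0.79, and Bgn with the macrophage markers from 0.49 (0.136) to 0.69. Podn with the fibroblast markers went the other way, to -0.081.

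**Figure D5:**
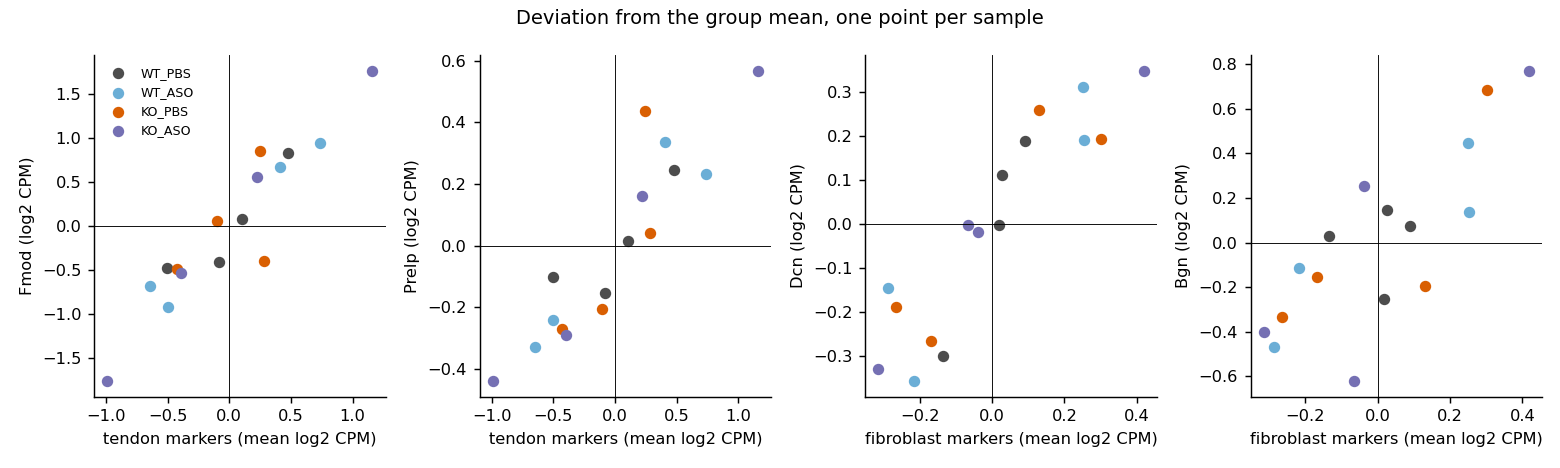
Deviation of a member from its group mean against that of a marker list, in log2 CPM, 1 point per sample and 1 colour per group. Fmod (r = 0.94) and Prelp (r = 0.92) are plotted against 6 tendon markers, and Dcn (r = 0.91) and Bgn (r = 0.80) against 12 fibroblast markers; both axes are on a log2 scale.

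The wider pathway was read from lists of named genes. Of 10 further SLRP family genes, 7 passed the filter and 0 were called by edgeR in KO_PBS vs WT_PBS or in KO_ASO vs KO_PBS. At an unadjusted P under 0.05 there were 1 (Tsku) and 0, where 27.3% and 17.7% of all tested genes were. Epyc, Optc and Podnl1 had too few counts for edgeR; DESeq2, which did not use that filter, called Podnl1 in KO_PBS vs WT_PBS and none in KO_ASO vs KO_PBS. Ecm2, the gene next to Aspn, was at 16.5 ± 1.54 CPM in WT_PBS and 17.3 ± 2.33 in KO_PBS (SD, n = 4 each; log2FC 0.072, SE 0.17). Tsku, encoding tsukushi, had a log2FC of 0.84 (SE 0.31, edgeR adjusted P = 0.0837) and Chad, chondroadherin, 0.64 (SE 0.79, adjusted P = 0.654). Kera, the gene next to Lum, went from 6.34 ± 1.76 CPM in WT_PBS to 3.19 ± 2.51 CPM in KO_PBS, a difference within the spread (log2FC -0.99, SE 0.81, adjusted P = 0.472). Chadl (0.27, SE 0.35), Omd (0.16, SE 0.47) and Nyx (-0.35, SE 0.52) also did not pass.

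Of 14 collagen genes that SLRPs bind, 0 were called by edgeR in either comparison. At an unadjusted P under 0.05 there were 3 in KO_PBS vs WT_PBS, where 27.3% of all tested genes were, and 4 in KO_ASO vs KO_PBS, where 17.7% were. DESeq2 called 2 in each, Col14a1 and Col5a2. The median log2FC of the 14 was 0.58 in KO_PBS vs WT_PBS, with 12 above 0, and -0.61 in KO_ASO vs KO_PBS, with 3 above 0. Of 26 tested genes that build the sugar chains, 1 was called higher and 1 lower in KO_PBS than in WT_PBS. Dse, the epimerase that turns chondroitin into dermatan sulfate, was higher (log2FC 0.92, SE 0.25, edgeR adjusted P = 0.0244), a call that was lost without WT_PBS replicate 1, 2 or 3 or KO_PBS replicate 1 or 4 (log2FC 0.61 to 0.89). The Dse call was also lost with the compared groups alone (edgeR adjusted P = 0.0530). Fam20b, the kinase of the linker sugar, was lower (log2FC -0.41, SE 0.092, adjusted P = 0.00847), a call that was lost on library totals alone (log2FC -0.26). The median of this list was -0.026.

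Of 12 genes for proteases that cut SLRPs and their helper Pcolce, 1 was called in KO_PBS vs WT_PBS: the collagenase Mmp13 was lower, at 3.03 ± 2.38 CPM in WT_PBS and 0.103 ± 0.0684 CPM in KO_PBS (SD, n = 4 each; log2FC -4.83, SE 0.95, edgeR adjusted P = 0.00616), with groups that overlapped. Markers of cartilage and bone went the same way, with a summed level of 2.78 ± 2.05 CPM (0.633 to 5.37) in WT_PBS and 0.570 ± 0.243 CPM (0.397 to 0.926) in KO_PBS (SD, n = 4 each), ranges that overlapped, and their part in the difference of Mmp13 was not tested. Of 16 tested growth factors and receptors known to bind SLRPs, 5 were higher and 1 lower in KO_PBS. The receptors Tlr2 (log2FC 2.38, SE 0.32, adjusted P = 0.000148) and Tlr4 (1.89, SE 0.25, adjusted P = 0.000158) and the growth factor Tgfb1 (1.07, SE 0.22, adjusted P = 0.00456) had the smallest P values. The others, named after their values were seen, were Ccn2 (1.42, SE 0.38) and Lrp1 (0.56, SE 0.17), which were higher, and Pdgfa (-0.54, SE 0.13), which was lower. These calls ended when 1 sample was left out: any of WT_PBS replicates 1 to 4 or KO_PBS replicates 1 and 2 for Ccn2 (1.08 to 1.49), any of WT_PBS replicates 1 to 4 or KO_PBS replicates 1 and 4 for Lrp1 (0.41 to 0.59), and WT_PBS replicate 4 or KO_PBS replicate 1 for Pdgfa (-0.49 to -0.47). In KO_ASO vs KO_PBS, 3 genes of this list, Lrp1, Tlr4 and Tlr2, were lower and 1, Pdgfa, was higher. The calls of Tlr2 (-1.14, SE 0.30) and Pdgfa (0.50, SE 0.13) each ended without any 1 of the samples except KO_ASO replicate 2 for Tlr2 (-1.22 to -0.95) and KO_ASO replicate 4 for Pdgfa (0.415 to 0.533). Lrp1, the endocytic receptor of decorin, fell by 0.75 on the log2 scale (SE 0.17, adjusted P = 0.0244) and Tlr4 fell by 1.02 (SE 0.24, adjusted P = 0.0313). Leaving out any 1 of KO_PBS replicates 1 and 4 and KO_ASO replicates 1, 2 and 3 ended the call of Lrp1 (log2FC -0.76 to -0.60), and any 1 of KO_PBS replicates 1 and 4 and KO_ASO replicates 1 and 3 that of Tlr4 (-1.02 to -0.85). Both calls were also lost with the compared groups alone (edgeR adjusted P = 0.0681 for Lrp1 and 0.0874 for Tlr4).

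Of 15 tested proteoglycans outside the family, 5 were higher and 0 lower in KO_PBS than in WT_PBS, with a median log2FC of 0.16. Vcan, the large hyaluronan-binding proteoglycan versican, rose (log2FC 1.72, SE 0.33, edgeR adjusted P = 0.00307), as did Cd44, the hyaluronan receptor (1.21, SE 0.24, adjusted P = 0.00341) and Spock2, a testican (1.07, SE 0.22, adjusted P = 0.00553). The syndecans Sdc2 (0.99, SE 0.29) and Sdc4 (0.56, SE 0.17), named after their values were seen, were the other two, and their calls ended without 1 of WT_PBS replicates 3 and 4 or KO_PBS replicates 1 and 2, and also without WT_PBS replicate 1 for Sdc2 (0.56 to 1.02) and WT_PBS replicate 2 for Sdc4 (0.47 to 0.53). In KO_ASO vs KO_PBS, 2 were lower, Vcan (log2FC -1.35, SE 0.32, adjusted P = 0.0318) and Spock2 (-0.92, SE 0.22, adjusted P = 0.0342). Leaving out any 1 of KO_PBS replicates 1 and 4 and KO_ASO replicates 1, 2 and 3 ended both of these calls, and leaving out KO_PBS replicate 2 ended that of Spock2, with log2FC values from -1.33 to -1.09 for Vcan and from -0.97 to -0.79 for Spock2. Both calls were also lost with the compared groups alone (edgeR adjusted P = 0.0765 for Vcan and 0.0750 for Spock2). That of Vcan was lost without a filter on low counts (0.0698). DESeq2 called 5 genes of this list in KO_ASO vs KO_PBS, with Vcan and Spock2 among them.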

How the data were processed

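For all 16 samples the authors deposited 1 table of raw, unscaled counts by Ensembl gene. HTSeq 0.6.1p1, STAR 2.5.3a, Bowtie2 2.2.8 and cutadapt 1.10 are in the submitters' processing notes, with the build GRCm38 (mm10); the sources used here do not give the strand setting of the counting. The library kit keeps strand and selects messenger RNA. All 29730 identifiers matched GENCODE. Genes were filtered with filterByExpr, scaled by TMM and tested with edgeR 4.0.16 (R 4.3.3), using a robust quasi-likelihood fit with 1 mean per group over all 16 samples and Benjamini-Hochberg adjustment over 14960 genes. The common biological coefficient of variation was 18.7%. SE is the log2FC divided by the root of F. CPM uses TMM-scaled totals, and log2 CPM a prior count of 2. The script was tested on simulated counts. Between samples of a group the chi-square per gene was at least 22.2, so no library appeared to be a copy. Alternatives were DESeq2 1.42.0, other scaling, no filter, the compared groups alone, a replicate block and leaving out each sample. Members and lists were chosen with earlier results of these data known. Named were all members, Bin1, Dnm2, the SLRP relatives tested, from each list up to 3 genes called in KO_PBS vs WT_PBS and up to 2 in KO_ASO vs KO_PBS by smallest P, and the 2 non-member genes most like each member; the marker lists were described beside the results.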

Additional observations from a re-analysis of the deposited data

Results flagged for a closer look

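Within groups of 4 samples, 3 of the 32 combinations of a member and a group had a sample whose distance from its nearest neighbour took most of the range of the group, past the 95% limit of Dixon's test; chance flags about 1 in 20 groups. Bgn was at 249 CPM in KO_PBS replicate 1, where the next sample was at 139 CPM. Aspn was at 23.8 CPM in WT_PBS replicate 4, with the next sample at 15.5 CPM. Podn was at 16.9 CPM in KO_ASO replicate 4, with the next sample at 6.36 CPM.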

How the results depend on the processing

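The count of member DEGs in KO_PBS vs WT_PBS was 2, and it was 3 with DESeq2, with library totals alone and with the compared groups alone, 1 without a filter on low counts and from 1 to 2 when 1 sample was left out. Over all genes 1878 were called, 1464 without the filter, 2478 with DESeq2 and from 997 to 1694 with 1 sample left out. In KO_ASO vs KO_PBS it was 1, and it was 2 with DESeq2, 0 without the filter, 0 with the compared groups alone, and from 0 to 4 when 1 sample was left out. Over all genes 544 were called, 1045 with DESeq2, 444 without the filter, 300 with the compared groups alone and from 208 to 831 with 1 sample left out. The cause was not tested. In the other 4 comparisons it was 0 under every alternative run. The main fit did not pair samples by the replicate numbers of the labels. Of 24 same-numbered pairs, 11 had a correlation of deviations above 0.1 (range -0.0777 to 0.435). Samples of the same number did share a pattern, as 13 of 16 samples were on average closest to their own number. What gave this pattern was not tested. With a replicate block the counts of member DEGs were 4 and 2, while calls over all genes rose to 2322 and 752. The members that then passed were Lum (log2FC 0.90, edgeR adjusted P = 0.0425) and Ogn (0.77, adjusted P = 0.0425) in KO_PBS vs WT_PBS and Bgn (-1.07, adjusted P = 0.0332) in KO_ASO vs KO_PBS, beside those called without the block. The block turned the direction of Fmod in WT_ASO vs WT_PBS (-0.10) and of Lum (-0.0019) and Podn (-0.033) in KO_ASO vs WT_PBS. Leaving out 1 sample at a time also changed the sign of log2FC values, of which the largest in the full data was that of Podn in KO_ASO vs WT_ASO, 0.36 and -0.17 without KO_ASO replicate 4. In KO_ASO vs WT_PBS the ranges were -0.041 to 0.48 for Aspn, -0.22 to 0.0054 for Dcn, -0.36 to 0.25 for Lum, -0.23 to 0.21 for Ogn and -0.51 to 0.18 for Podn. In KO_ASO vs WT_ASO they were -0.11 to 0.13 for Dcn, -0.14 to 0.33 for Ogn and -0.17 to 0.53 for Podn. In WT_ASO vs WT_PBS they were -0.16 to 0.54 for Fmod, -0.31 to 0.080 for Ogn and -0.12 to 0.096 for Prelp. For the interaction they were -0.13 to 0.39 for Aspn, -0.44 to 0.18 for Lum and -0.42 to 0.28 for Podn. Of all member values under an alternative, 666 kept their direction and side of the threshold, 39 changed direction, 10 came past the threshold and 13 dropped below it. Scaling by library totals alone moved the median log2FC of all genes in KO_PBS vs WT_PBS by 0.15 to 0.14, and changes are relative to the TMM scale. The lowest count of a member in any sample was 159, for which counting error alone is 7.93% of the value, beside a common biological coefficient of variation of 18.7%.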
